A study of Rattus norvegicus with 5 samples.

Results

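Receptors for neurotransmitters were measured in rat retinal Müller cells by 155 probe sets of 101 genes, among 8740 probe sets that are not controls on an Affymetrix rat array. The members were taken by gene symbol alone: ionotropic and metabotropic glutamate receptors (Gria, Grik, Grin, Grm), GABA-A, GABA-rho and GABA-B receptors (Gabr, Gabbr), glycine receptors (Glra, Glrb), nicotinic and muscarinic acetylcholine receptors (Chrn, Chrm), dopamine (Drd), serotonin (Htr) and adrenergic (Adra, Adrb) receptors, and purine receptors (P2r). No signal entered that choice. Total RNA came from Müller cells of male Sprague-Dawley rats. Rats of the diabetic group were made diabetic with streptozotocin, which is toxic to pancreatic beta cells, and were kept for 6 months on low insulin doses that prevent wasting. It comprised 2 arrays of 1 pool of cells from 12 rats, because the second array is labelled a technical replicate. The normal group comprised 3 arrays, each with cells pooled from the retinas of 12 healthy rats. With 1 diabetic pool, the spread between diabetic pools was not measured, and pooling hides the differences between single rats.

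Müller cells span the retina and wrap its synapses. They take up glutamate and GABA released by neurons, and receptors on their membrane, among them purinergic P2Y receptors that raise cell calcium, let them respond to neuronal activity. Most of the receptors described below are better known from retinal neurons, where glutamate passes the signal from photoreceptors to bipolar and ganglion cells and where amacrine cells release GABA, glycine, acetylcholine and dopamine. In a pooled cell preparation, RNA of a few neurons and RNA of the glia themselves cannot be told apart, nor can fewer cells of a type be told from less RNA per cell.

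Signals are given on a normalised scale, on which all 5 arrays have the same distribution of values and every value under 20 is set to 20. An array at this floor of 20 has only an upper bound. The normalised scale was needed because the deposited medians lay at 62.1 and 73.1 on the diabetic arrays, against 40.9, 27.9 and 91.3 on normal arrays 1, 2 and 3. Levels of different probe sets are not compared one with another, since each probe set has its own sensitivity. Counts of probe sets at the floor depend on that sensitivity too, and the brightest probe sets weigh most in the summed signals of marker lists. Of the Müller cell markers, 18 of 21 probe sets of 10 genes were above the floor on all 5 arrays and 0 were at it on all 5. Glul, the glutamine synthetase of retinal glia, measured by M91652complete_seq_at, had 4149 and 5157 on the diabetic arrays, against 5901, 3556 and 4276 on the normal arrays. Inner retinal neuron markers were also present, with 28 of 46 probe sets above the floor on all 5 arrays. Normal array 3 and diabetic array 2 shared a processing day and chip lot, and the record of diabetic array 1 names neither. For actin, the signal at the 3′ end over that at the 5′ end, which grows as RNA degrades, was 1.76 and 2.55 on the diabetic arrays, against 2.61, 1.52 and 1.46 on the normal arrays.

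Much of the receptor set lay at or near the floor in both groups. Of the 155 probe sets, 31 (20%) were at the floor on all 5 arrays, where 17.3% of all probe sets were. Above the floor on all 5 arrays were 71 (45.8%), against 60.1% of all probe sets. These 71 belonged to 58 genes, and for 14 genes every probe set was at the floor on every array. Counted by array, 58 and 61 of the 155 were at the floor on diabetic arrays 1 and 2, against 52, 54 and 60 on normal arrays 1, 2 and 3. The share of single readings at the floor was 38.4% on the diabetic arrays and 35.7% on the normal arrays. Over all probe sets 28% were at the floor on every array, and the receptor share was higher on every array, at 33.5% to 39.4%. Normalisation set that equal 28%, whereas 23.2% to 42.6% of the deposited values were under 20, depending on the array. The similar shares of the groups thus depend on the processing, and no likeness between groups is read from them.

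**Figure D1:**
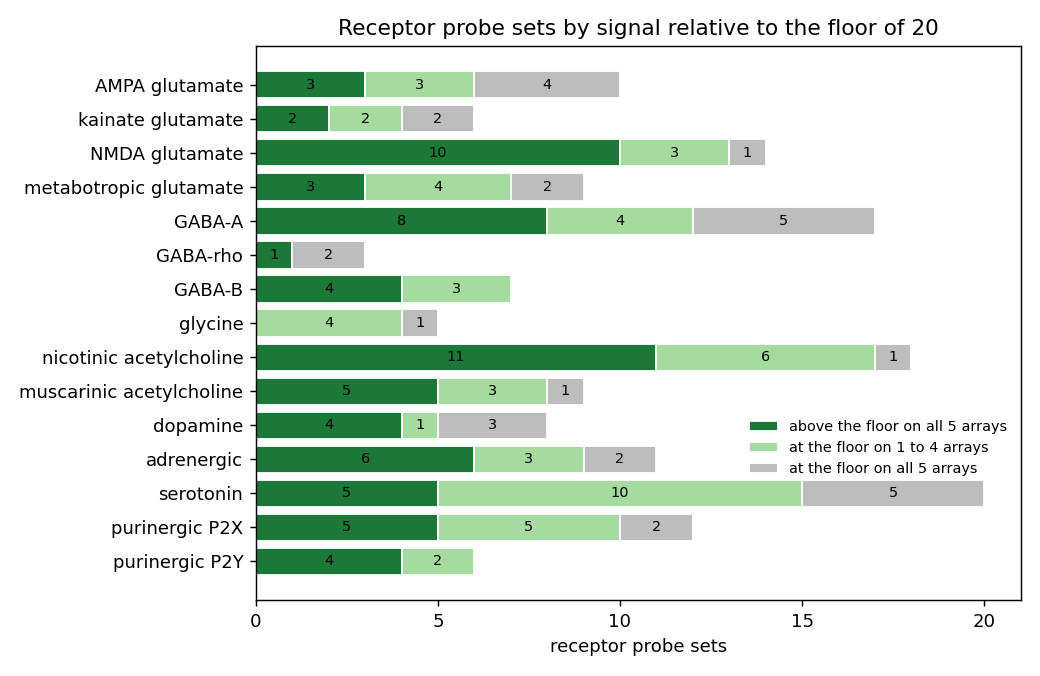
Number of receptor probe sets (horizontal axis) in each receptor family (rows), split into those above the floor of 20 on all 5 arrays, at it on 1 to 4 arrays, and at it on all 5. NMDA and nicotinic receptors had 10 of 14 and 11 of 18 probe sets above the floor on all 5 arrays, while glycine receptors had 0 of 5.

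The families differed in how many of their probe sets gave signal. NMDA receptors, the glutamate channels that need a co-agonist and release from magnesium block, had 10 of 14 probe sets above the floor on all 5 arrays, covering all 6 measured genes. Nicotinic receptors, the acetylcholine-gated channels, had 11 of 18. Glycine receptors had 0 of 5, serotonin receptors 5 of 20 and AMPA receptors, the fast glutamate channels, 3 of 10. At the floor on all 5 arrays stood both probe sets of the AMPA subunit Gria3, both of the GABA-A subunit Gabra5 and both of the kainate subunit Grik4. The same held for the single probe sets of Grm3 and Grm5, 2 metabotropic glutamate receptors, of P2rx5 and P2rx7, 2 ATP-gated channels, and of the GABA-rho subunits Gabrr2 and Gabrr3. At the floor on all 3 normal arrays and above it on both diabetic arrays was 1 receptor probe set of 155, where 0.366% of all probe sets were. The reverse held for 2, where it held for 0.366% of all. The nicotinic subunit Chrnb3 had 22.2 and 35.5 on the diabetic arrays, against the floor on all 3 normal arrays, which makes it at least 1.41-fold higher in the diabetic pool. In the other direction, a probe set of the glycine receptor subunit Glra1 (X55246_at) was at the floor on both diabetic arrays, against 21.2, 41.0 and 26.4 on the normal arrays (at least 1.42-fold lower), and Gabrp of the GABA-A family was at the floor against 21.5, 20.7 and 23.9 (at least 1.1-fold lower). These 3 probe sets were chosen after their values were seen, and none was bright enough to be tested.

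A total of 86 of the 155 receptor probe sets (55.5%), of 70 genes, were bright enough for the test, which kept 70% of all probe sets. None of the 86 differed between the diabetic pool and the 3 normal pools after adjustment over all 6118 tested probe sets (limma, lowest adjusted p = 0.9999 among the receptors), where 0% of all tested probe sets did. At an unadjusted p under 0.05 in limma there were 0 receptor probe sets above normal, where 1.19% of all were, and 1 below normal, where 0.409% were. In either direction that is 1.16% of the receptors, against 1.6% of all. In limma's model the 95% interval of the difference included 0 for 85 of 86, and it lay within 2-fold in both directions for only 4, so most receptors could differ by 2-fold without being called. The diabetic pool lay above normal for 38 and below for 48, with a median log2 difference of -0.06, against -0.01 over all tested probe sets. A difference over 1.5-fold was found for 14 (16.3%), where 14.1% of all probe sets had one, and over 2-fold for 1, against 3.24% of all. The diabetic pair exceeded every normal array for 6 (6.98%), where 9.53% of all probe sets did, and was below every one for 5 (5.81%), where 7.01% did. In 79 of 86 the range of the 3 normal pools was larger than the difference between the groups, and in 49 the technical pair of diabetic arrays differed by more than the groups.

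**Figure D2:**
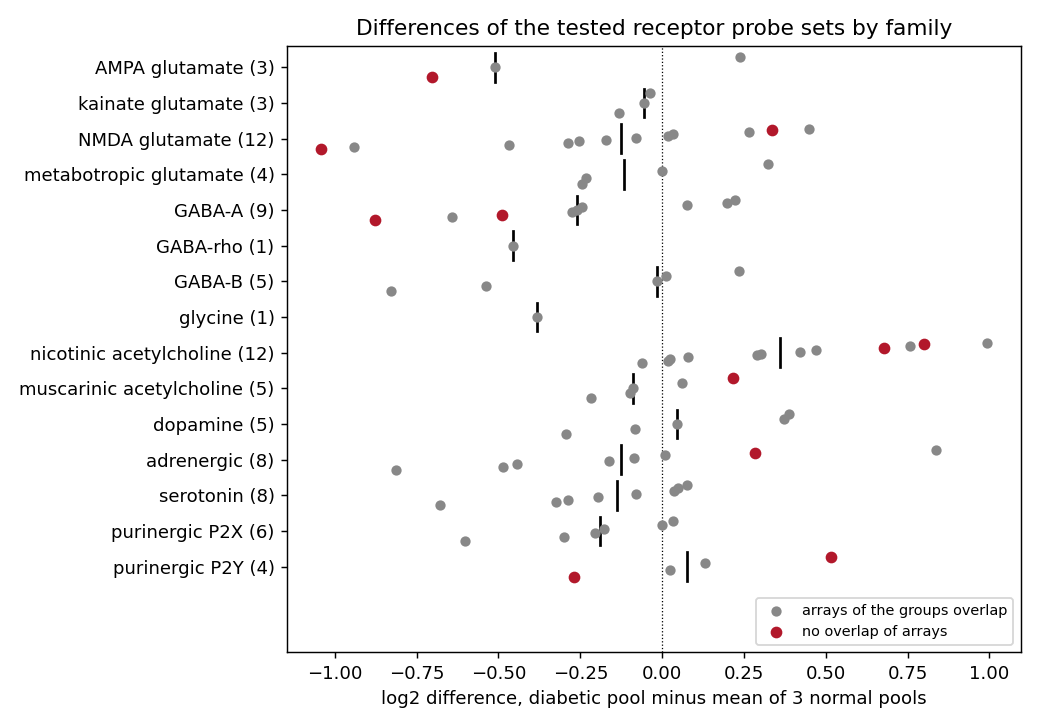
Log2 difference, diabetic pool minus the mean of 3 normal pools (horizontal axis), of each of the 86 tested receptor probe sets (points), by family with the number tested in brackets. Black bars mark family medians and red points probe sets whose arrays did not overlap between groups; nicotinic receptors had a median of 0.36 and AMPA receptors of -0.51.

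Glutamate receptors held the single member at an unadjusted p under 0.05. Grin2c encodes an NMDA receptor subunit that gives channels with weak magnesium block. Its probe set D13212_s_at had 187 and 146 on the diabetic arrays, against 302, 399 and 329 on the normal arrays. Both diabetic arrays were lower than every normal array, and the log2 difference was -1.04 (SE 0.31, 95% interval -1.81 to -0.28, 1 diabetic and 3 normal pools). limma gave it an unadjusted p of 0.0166 and an adjusted p of 0.9999. Between the arrays of the shared day the difference was -1.17. It was -0.52 without scaling between arrays, where the median of all tested probe sets was 0.47. The second probe set of Grin2c, U08259_r_at, had 59.0 and 43.4 on the diabetic arrays, against 52.1, 65.7 and 100.3 on the normal arrays. Those groups overlapped, and the difference was -0.47 (SE 0.55). The first is an _s_at set, a design whose probes can match more than 1 similar transcript, as are 43 of the 155 receptor sets.

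NMDA receptor probe sets as a whole lay on both sides, with 5 of 12 above and 7 below normal and a median of -0.13. The obligatory subunit Grin1 had 4 probe sets, of which U11418_s_at was at the floor throughout. S39221_at had 37.1 and 45.3 on the diabetic arrays, against 27.7, 36.0 and 34.3 on the normal arrays (log2 difference 0.34, SE 0.48), without overlap. S39221_g_at lay the other way, at 26.8 and 20.8 on the diabetic arrays, against the floor, 27.7 and 43.2 on the normal arrays (-0.29, SE 0.60). The subunit Grin2a showed how far the technical pair could part, with 237 and 80.7 on the diabetic arrays, against 194, 149 and 88.1 on the normal arrays (AF001423_at, 0.02, SE 0.53). Grin2b differed by 0.27 (SE 0.44), and Grin2d and Grin3a gave both signs. For Grin3a, U29873_at had 26.3 and 39.3 on the diabetic arrays, against 135, 81.4 and 21.5 on the normal arrays (-0.94, SE 1.05), so the normal pools alone spanned the difference.

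AMPA receptor subunits lay lower for Gria2, the subunit that keeps AMPA channels closed to calcium. Its probe set M38061_at had 28.5 and 27.1 on the diabetic arrays, against 40.4, 32.6 and 70.3 on the normal arrays, without overlap (log2 difference -0.70, SE 0.61). The other, M36419_s_at, had 79.6 and 53.9 on the diabetic arrays, against 58.3, 119.9 and 116.5 on the normal arrays (-0.51, SE 0.58), with normal array 1 among the diabetic values. Neither passed limma's test (adjusted p = 0.9999 for both). The third tested AMPA probe set, S56679_s_at of Gria1, differed by 0.24 (SE 0.63), and Gria4 was too dim to be tested. Its probe set M36421_s_at had 27.5 and 25.8 on the diabetic arrays, against 27.3, 21.6 and 20 on the normal arrays.

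Kainate and metabotropic glutamate receptors differed little beside their spread. Grik5, a kainate subunit that needs a partner to form channels, had 259 and 266 on the diabetic arrays, against 246, 287 and 286 on the normal arrays. All 5 arrays lay close together, and the difference was -0.05 with an interval of -0.78 to 0.67. Grik2 had 32.3 and 45.5 on the diabetic arrays, against 39.7, 35.0 and 43.8 on the normal arrays (log2 difference -0.04, SE 0.47). Grm6, the receptor by which ON bipolar cells read photoreceptor glutamate, had 201 and 185 on the diabetic arrays, against 113, 217 and 294 on the normal arrays. The normal pools alone spanned more than that difference, which was smaller than 0.01 in size (SE 0.58). Grm4, a presynaptic metabotropic receptor, had 77.2 and 127.2 on the diabetic arrays, against 46.4, 128.2 and 83.7 on the normal arrays (0.32, SE 0.66).

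GABA receptors lay above normal for 5 and below for 10 of 15 tested probe sets, where 48.8% of all tested probe sets were above. Their median was -0.26, and none reached an unadjusted p under 0.05 in limma. The GABA-A median lay at -0.47 and -0.08 from the normal mean on diabetic arrays 1 and 2. On normal arrays 1, 2 and 3 it lay at 0.30, 0.17 and -0.53 from the other normal arrays. Among GABA-A receptors, the chloride channels of fast inhibition, both diabetic arrays were below all normal arrays for 2 of 9, where 7.01% of all tested probe sets were. The α3 subunit Gabra3 (L08492cds_s_at) was at the floor and at 26.2 on the diabetic arrays, against 41.2, 66.4 and 27.1 on the normal arrays (log2 difference -0.88, SE 0.64). The α6 subunit Gabra6 had 38.8 and 44.2 on the diabetic arrays, against 70.4, 51.5 and 54.1 on the normal arrays (-0.49, SE 0.48). Gabra4 had 27.1 and 49.9 on the diabetic arrays, against 77.3, 46.8 and 52.3 on the normal arrays (-0.64, SE 0.53), with diabetic array 2 within the normal range. Gabra2 had the smallest difference of the family, 0.08 (SE 0.53). Other probe sets of Gabra3 and Gabra4 were at or near the floor. X51991_at of Gabra3 was above it only on diabetic array 2, at 30.9.

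The GABA-rho subunit Gabrr1, which forms slow chloride channels in bipolar cells, had 328 and 307 on the diabetic arrays, against 313, 470 and 557 on the normal arrays. Normal array 1 lay among the diabetic values and the other normal arrays lay above them (log2 difference -0.45, SE 0.39; -0.86 between the arrays of the shared day). Without normal array 1 the difference was -0.70 and the unadjusted p in limma 0.0495, with an adjusted p of 0.945. GABA-B receptors, which couple to G proteins and work as pairs of both gene products, gave mixed values. Gabbr1 (AB016160_at) had 223 and 121 on the diabetic arrays, against 150, 189 and 153 on the normal arrays (0.01, SE 0.35), so the diabetic pair enclosed the normal pools. Gabbr2 differed by -0.02 (SE 0.40), -0.54 (SE 0.59) and -0.83 (SE 0.75) on its 3 probe sets. The only tested glycine receptor probe set, D00833_at of Glra1, had 26.2 and 23.8 on the diabetic arrays, against 37.8, 45.6 and the floor on the normal arrays (-0.38, SE 0.63).

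Nicotinic acetylcholine receptors lay above normal for 11 of 12 tested probe sets, where 48.8% of all tested probe sets were above normal, with a median log2 difference of 0.36. None reached an unadjusted p under 0.05 in limma, and the 12 probe sets measure 9 genes. Chrnb1, the β1 subunit known from muscle receptors, had 128 and 126 on the diabetic arrays, against 90.0, 74.1 and 58.3 on the normal arrays. Both diabetic arrays were above every normal array (log2 difference 0.80, SE 0.47, interval -0.36 to 1.96). Chrnb4, a β subunit of neuronal receptors, had 160.5 and 111.9 on the diabetic arrays, against 64.5, 111.7 and 81.8 on the normal arrays by J05232cds_s_at (0.68, SE 0.48). Diabetic array 2 there exceeded normal array 2 by only a small step. By U42976_at, Chrnb4 had 269 and 260 on the diabetic arrays, against 290, 177 and 151 on the normal arrays (0.42, SE 0.45), with normal array 1 on top.

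The α7 subunit Chrna7, which forms calcium-permeable channels of 1 subunit type, was above normal on all 3 of its probe sets, by 0.76 (SE 0.50), 0.29 (SE 0.53) and 0.08 (SE 0.65). By S53987_at it had 74.1 and 37.8 on the diabetic arrays, against 38.5, 26.8 and 29.8 on the normal arrays, so diabetic array 1 alone stood out. Chrna2 had 41.7 and 68.6 on the diabetic arrays, against 20, 47.2 and 20.5 on the normal arrays (0.99, SE 0.67). Chrna1, Chrne and Chrnd differed by 0.47 (SE 0.67), 0.30 (SE 0.57) and 0.03 (SE 0.49). Chrna6 differed by 0.02 (SE 0.53), and Chrng, known from fetal muscle, was the 1 tested nicotinic probe set below normal (-0.06, SE 0.34). The family's median on normal array 1 lay 0.45 above that of the other normal arrays, against 0.31 and 0.39 above the normal mean on diabetic arrays 1 and 2. A single normal pool thus also lay above its baseline. The baselines differ, because the normal mean includes normal array 1, so the sizes of these deviations are not compared. The median was 0.55 without normal array 1, 0.19 without normal array 3 and 0.52 between the arrays of the shared day.

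**Figure D3:**
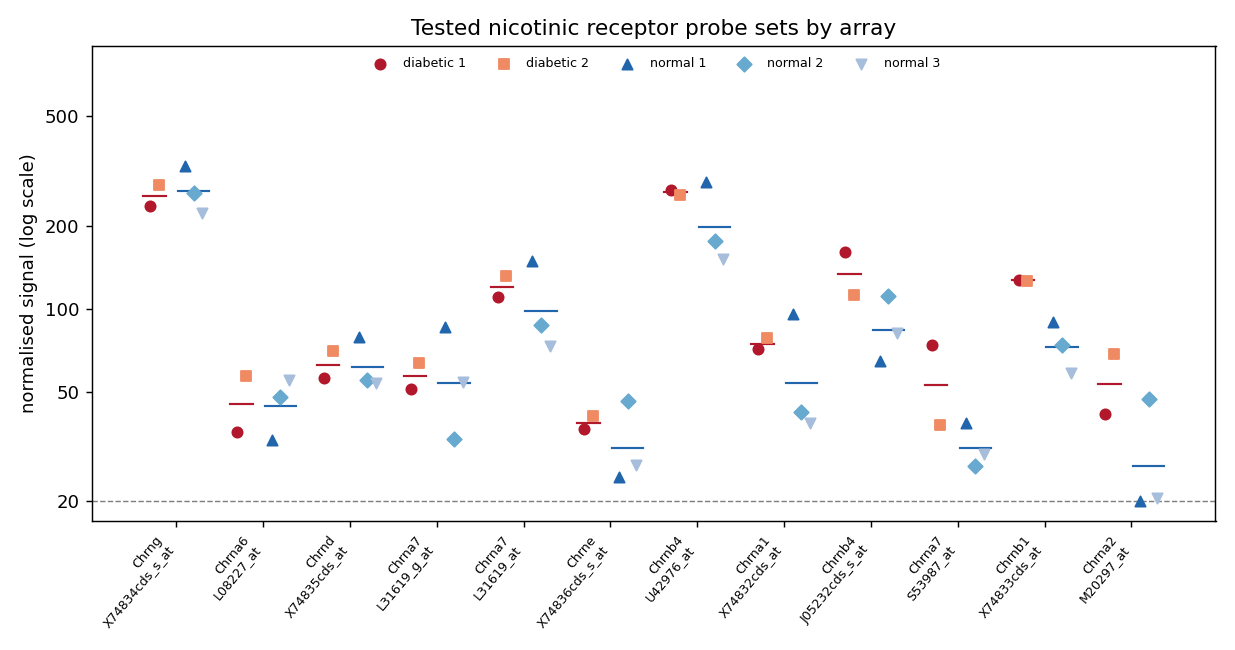
Normalised signal (vertical axis, log scale) of the 12 tested nicotinic receptor probe sets on each array, diabetic arrays left of normal arrays, ordered by log2 difference. Horizontal lines are geometric means of each group's arrays and the dashed line is the floor of 20; Chrnb1 had 128 and 126 on the diabetic arrays, above 90.0, 74.1 and 58.3 on the normal arrays.

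Muscarinic receptors, the acetylcholine receptors that couple to G proteins, had 2 of 5 tested probe sets above normal. Chrm3, which raises cell calcium through Gq, had 94.4 and 95.4 on the diabetic arrays, against 77.3, 81.8 and 86.2 on the normal arrays (M16407_at). The groups did not overlap, but the difference was 0.22 with an SE of 0.41. Its other probe set, AB017656_s_at, had 20.7 and 20 on the diabetic arrays, against 27.1, 20 and 29.9 on the normal arrays. Chrm1 differed by 0.06 (SE 0.49) and Chrm4 by -0.22 (SE 0.48).

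Receptors for dopamine, noradrenaline and serotonin had medians of 0.05, -0.12 and -0.14 over 5, 8 and 8 tested probe sets, with 0 of these 21 at an unadjusted p under 0.05 in limma. Drd4, a dopamine receptor of the D2 class, had 293 and 285 on the diabetic arrays, against 166, 349 and 192 on the normal arrays (log2 difference 0.37, SE 0.49). Drd2 had 72.4 and 77.4 on the diabetic arrays, against 64.8, 66.6 and 179.8 on the normal arrays (-0.29, SE 0.71), where normal array 3 alone was high. Drd3 differed by 0.05 (SE 0.43).

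Adrb1, the β1-adrenergic receptor, had 38.8 and the floor on the diabetic arrays, against 22.7, 92.8 and 55.7 on the normal arrays (log2 difference -0.81, SE 0.85). Adra2a gave opposite signs on its 2 tested probe sets, 0.28 (SE 0.47) by U79031_at and -0.44 (SE 0.85) by S79778mRNA_s_at. The first had 40.04 and 44.8 on the diabetic arrays, against 38.7, 32.1 and 33.9 on the normal arrays, without overlap. Adra1a, Adra1d and Adra2b differed by -0.09, -0.16 and 0.01, and Adra2c by -0.49 (SE 0.52). Among serotonin receptors, the channel subunit Htr3a had 216 and 122 on the diabetic arrays, against 189, 143 and 146 on the normal arrays (U01227_s_at, 0.04, SE 0.36). Htr1d differed by -0.20 (SE 0.52). Htr2c had the floor and 28.6 on the diabetic arrays, against 72.5, 33.1 and 23.4 on the normal arrays (-0.68, SE 0.74). Normal array 1 was above the mean of the other normal arrays for all 8 tested serotonin probe sets, by a median of 1.01.

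Purine receptors respond to ATP and related nucleotides. P2ry12, an ADP receptor known as a marker of microglia, had 144 and 131 on the diabetic arrays, against 103.8, 88.6 and 97.1 on the normal arrays. Both diabetic arrays were above all normal arrays, the log2 difference was 0.51 (SE 0.39, interval -0.46 to 1.49), and it stood at 0.43 between the arrays of the shared day. Microglia and leukocyte markers lay above normal for 13 of 16 tested probe sets, with a median of 0.55 and 0 past limma's adjusted threshold. Their summed signal was 3549 and 3624 on the diabetic arrays, against 2511 to 2878 on the normal arrays. Ctss alone gave 1358 and 1548 of the diabetic sums, and 952, 1259 and 1036 of the normal ones. Coro1a, the 1 member of that list at an unadjusted p under 0.05 in limma, differed by 1.43 (SE 0.51, adjusted p = 0.9999). It had 75.0 and 51.2 on the diabetic arrays, against 20, 20 and 30.3 on the normal arrays, so the floor affects its size and spread. Of the list's 25 probe sets, 6, of Cd44, Cd74 and Ptprc, were at the floor on all 5 arrays. Those of Csf1r and Itgam were at it on 4 and 3 of the 5 and were not tested. The part of microglia in the P2ry12 signal was not tested.

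P2ry2, a receptor for ATP and UTP, had 25.7 and 26.8 on the diabetic arrays, against 37.6, 27.4 and 30.9 on the normal arrays. The groups did not overlap, yet all values stood near the floor (log2 difference -0.27, SE 0.48). P2ry1, the ADP receptor, had 29.4 and 20 on the diabetic arrays, against 20, 20.5 and 29.7 on the normal arrays, and was not tested. P2ry4 differed by 0.02 (SE 0.47). Of the ATP-gated channels, P2rx4 had 62.0 and 80.9 on the diabetic arrays, against 59.6, 87.8 and 68.1 on the normal arrays, a difference smaller than 0.01 in size (SE 0.47). P2rx3 had the floor and 69.0 on the diabetic arrays, against 92.8, 47.9 and 40.5 on the normal arrays (-0.60, SE 0.63). P2rx6 differed by -0.30 (SE 0.57), and 5 of 6 tested P2X probe sets lay below normal. The technical pair parted here, with 0 of 6 above the normal mean on diabetic array 1 and 4 of 6 on diabetic array 2. Normal arrays 1, 2 and 3 were above the mean of the other normal arrays for 5, 1 and 1 of the 6.

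**Figure D4:**
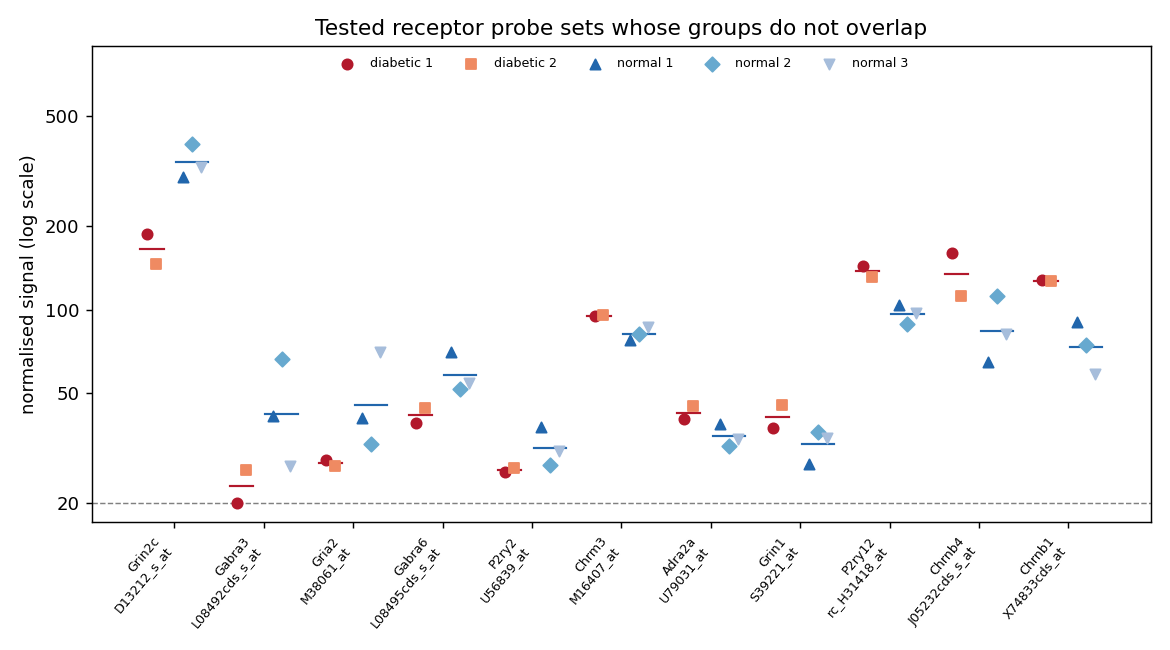
Normalised signal (vertical axis, log scale) on each array of the 11 tested receptor probe sets whose diabetic arrays (left) all lay below or all above the normal arrays (right), ordered by log2 difference. Horizontal lines are geometric means of each group's arrays; Grin2c had 187 and 146 on the diabetic arrays, below 302, 399 and 329 on the normal arrays.

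Probe sets of the same gene often disagreed. Of 35 receptor genes with several probe sets, 8 had one above the floor on all 5 arrays and another at it on all 5, namely Adra1d, Adra2a, Chrm4, Drd3, Gabra4, Gria1, Grin1 and Htr3a. Of 12 genes with several tested probe sets, 6 had the same sign of difference on all of them: Chrna7, Chrnb4, Gabbr1, Gabbr2, Gria2 and Grin2c. Among the tested probe sets of these genes the direction did not depend on the one chosen, although none passed the test. Some of the differences were near 0, such as 0.01 for Gabbr1 by AB016160_at and -0.02 for Gabbr2 by AF058795_at. Each of these changed sign in 4 of 15 alternative settings.

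Between normal arrays 1 and 2 the median size of the log2 difference was 0.61 over the tested receptors and 0.47 over all tested probe sets. Normal array 1 was the highest of the 5 arrays for 41 of the 86 tested receptor probe sets (47.7%), against 28.2% of all tested probe sets. Diabetic arrays 1 and 2 were highest for 10 and 9, and normal arrays 2 and 3 for 19 and 7. Normal arrays 1 and 3 differed by over 2-fold for 22 receptor probe sets (25.6%, against 20.1% of all), while the technical pair of diabetic arrays did for 6 (6.98%, against 10.1% of all). Across families, normal array 1 lay above the other normal arrays for serotonin, P2X and adrenergic receptors, by medians of 1.01, 0.74 and 0.68. It lay below them for metabotropic glutamate receptors, with a median of -1.01. Normal array 1 and diabetic array 2 were the arrays with the high actin ratios. The same ratio for GAPDH was 1.11 and 1.35 on the diabetic arrays, against 1.16, 1.24 and 1.03 on the normal arrays. By GAPDH, normal array 1 thus lay below normal array 2. The part of RNA quality in these medians was not tested.

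**Figure D5:**
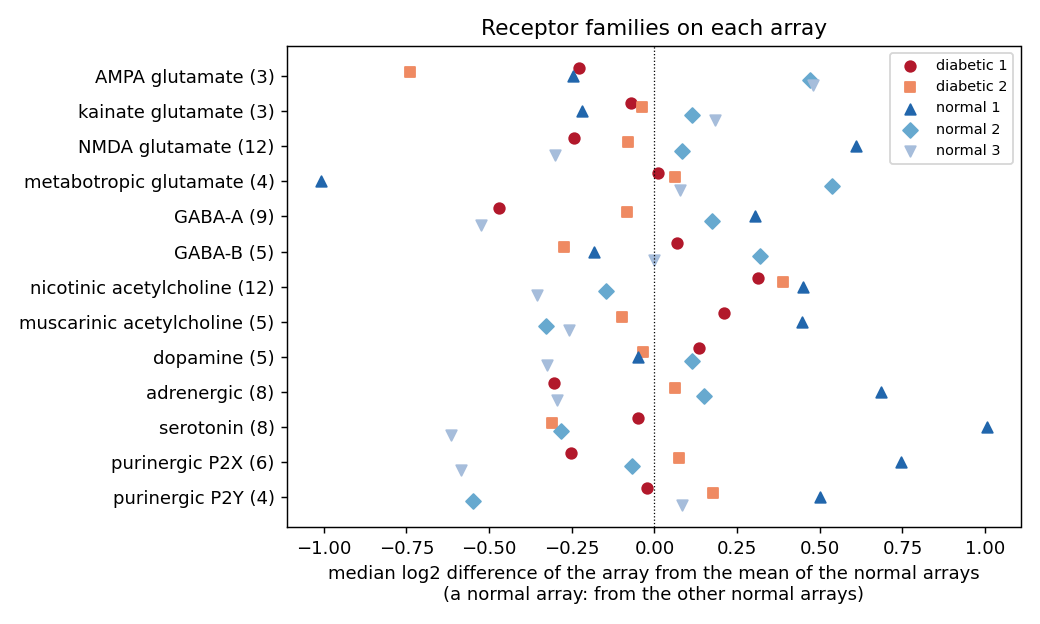
Median log2 difference of each array from the mean of the normal arrays, or for a normal array from the other normal arrays (horizontal axis), in each receptor family with at least 3 tested probe sets (rows, number tested in brackets). Normal array 1 reached 1.01 for serotonin and -1.01 for metabotropic glutamate receptors, and the diabetic arrays lay between -0.74 and 0.39.

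RNA of proteins that work with the receptors likewise gave no called difference. Scaffolds and partners at the synapse had 15 of 37 tested probe sets above and 22 below normal, with a median of -0.16. Signalling proteins of receptors coupled to G proteins had 31 above and 20 below, with a median of 0.06, and genes of transmitter synthesis and removal 21 above and 19 below, with a median of 0.02. In limma 0 probe sets of these 3 lists passed the adjusted threshold and 0 had an unadjusted p under 0.05. Dlg4, the scaffold PSD-95 that anchors NMDA receptors, had 248 and 269 on the diabetic arrays, against 338, 336 and 228 on the normal arrays. Gphn, the gephyrin that anchors glycine and GABA-A receptors, had 74.5 and 86.8 on the diabetic arrays, against 64.6, 64.5 and 113.8 on the normal arrays. Both were chosen after their values were seen. The largest moderated statistics in these lists were those of Camk2d, a calcium-dependent kinase (rc_AA894330_s_at, 0.38, SE 0.26), of Prkaca, the catalytic subunit of protein kinase A (X57986mRNA_r_at, 1.18, SE 0.66), and of the glutamate transporter Slc1a3 (S75687_s_at, -0.47, SE 0.24). All 3 genes have other tested probe sets with smaller or opposite differences, such as 0.46 (SE 0.44) for Slc1a3 by X63744_g_at.

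Markers of inner retinal neurons lay above normal for 16 and below for 20 of 36 tested probe sets, with a median of -0.07, and 0 passed limma's adjusted threshold. At an unadjusted p under 0.05 in limma were the neuropeptides Sst (1.94, SE 0.48) and Npy (-1.95, SE 0.63), with an adjusted p of 0.9999 each. Sst (M25890_at) had 83.3 and 94.3 on the diabetic arrays, against 22.7, 27.1 and 20 on the normal arrays. Npy had 20 and 27.6 on the diabetic arrays, against 63.9, 151.7 and 76.6 on the normal arrays. In both, the lower group stood at or near the floor, which affects the size and spread. The summed signal of all inner retinal neuron markers was 5363 and 5830 on the diabetic arrays, against 4629, 6626 and 5036 on the normal arrays. At the floor on all 5 arrays were 6 probe sets, of Map2, Nefh, Nefl and Syn2. The groups overlapped in that sum. Photoreceptor markers lay above normal on all 10 tested probe sets, with a median of 0.60, and summed to 15025 and 16450 on the diabetic arrays, against 13088, 11171 and 5457 on the normal arrays. Among them Opn1sw, the short-wave cone opsin, had an unadjusted p under 0.05 in limma (1.35, SE 0.45, adjusted p = 0.9999). Endothelial and pericyte markers had 3 of 9 above normal (median -0.06), Müller cell markers 6 of 19 (median -0.11), and the 2 tested probe sets of the pigment epithelium list, both of Ttr, were above normal. The part of these cell types in the receptor signals was not tested.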

How the data were processed

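A single table of 8799 probe sets on 5 arrays holds the intensity values the authors deposited, on a linear scale. Their summary algorithm and scaling, and a genome build, are stated by no source used here. The deposited experiment record of each array (other text, per the file headers) was used only for processing day and chip lot. The arrays' trimmed means differed by up to 3.53 times, so they were quantile-normalised, floored at 20 and converted to log2. Leaving out 59 control probe sets and then the 30% with the lowest mean of group means left 6118. Both diabetic arrays, a technical pair, were averaged on the log2 scale. The fit was lmFit and eBayes (trend) of limma 3.58.1 in R 4.3.3, two-sided, with p-values adjusted by Benjamini-Hochberg across the 6118 and a threshold of 0.05. The residual degrees of freedom were 2, all from the normal pools, and the prior ones 3.54. The script was tested on simulated data. An exact permutation of 1 pool against 3 cannot give a p under 0.25. The number of arrays limits the precision.

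Symbols came from the platform annotation, and all 101 receptor genes matched a RefSeq gene table of GRCr8, used for names only. Members, lists and alternatives were chosen with earlier results of these data known. Receptor probe sets were named at an unadjusted p under 0.05, without overlap and at least 0.5 in size on the log2 scale, with the largest or smallest difference of a family, as further probe sets of such genes, or from a fixed list of genes. Others were named outside that rule, after their values were seen. These were Grin2b, Grin2d, Grin3a, Gabra6, Glra1, Chrna1, Chrna2, Chrna7, Chrnd, Chrne, Chrng, Adra2a, Htr2c, P2rx3, Glul, Slc1a3 by its second probe set, and a few genes marked in the text. The genes listed by name as at the floor on all 5 arrays were also outside it, apart from Grm5 and P2rx7 of the fixed list. Genes of other lists were named at an unadjusted p under 0.05 or as those with the largest moderated statistic. Alternatives were 2 other scalings, 2 floors, 2 filters, eBayes without trend, 5 separate arrays, leaving out each array, the arrays of the shared day, and, added after seeing the data, the 3 arrays with low actin ratios. Figures were drawn with matplotlib 3.10.9.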

Additional observations from a re-analysis of the deposited data

How the results depend on the processing

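No paired analysis was possible because the replicate numbers of the diabetic arrays mark a technical repeat and those of the normal arrays separate pools. With the 5 arrays as separate samples, 13 of all 6118 tested probe sets (0.212%) passed limma's adjusted threshold, all of them above normal. The count of 0 receptor probe sets past that threshold held there and in all settings run except without the filter on dim probe sets. There 8 of 155 receptors (5.16%) were called above normal, where 170 of all 8740 (1.95%) were called. In all 8 receptors, and in 162 of the 170, the 3 normal arrays were at the floor and so had no spread, and the 8 log2 differences were only 0.10 to 0.49. The same setting gave 8 receptors above normal at an unadjusted p under 0.05 (5.16%, against 3.48% of all) and 8 below without overlap (5.16%, against 5.34%). At an unadjusted p under 0.05, 0 were below normal unscaled (0% of all) and with median scaling (0.131% of all). With a floor of 40, 1 was above (1.12%, against 3.55%), as was 1 with the 5 arrays as separate samples (1.16%, against 2.75%). On the 3 arrays with low actin ratios 2 were above (2.17%, against 4.56%) and 3 below (3.26%, against 4.23%). Leaving out single arrays gave 0 to 1 above and 0 to 3 below: 0 below without normal array 2 (0.131% of all), 3 below without normal array 1 (3.37%, against 2.57%), 1 above without diabetic array 1 (1.15%, against 1.98%) and 1 above without diabetic array 2 (1.11%, against 2.75%). Without overlap, 15 receptors were above unscaled (17.6%, against 8.5% of all) and 0 below (0.212% of all). Below without overlap were 3 with median scaling (3.37%, against 5.66%), 2 with a floor of 40 (2.25%, against 5.72%) and 1 with the dimmest 50% left out (2.22%, against 6.77%). On the 3 arrays with low actin ratios 30 were above (32.6%, against 34.4%) and 31 below (33.7%, against 34.6%). Leaving out single arrays gave 7 to 17 above and 14 to 19 below. Without normal array 1 there were 17 above (19.1%, against 18.6%) and 15 below (16.9%, against 17.8%), and without normal array 2 there were 11 (12.5%, against 13.8%) and 14 (15.9%, against 12.3%). Without normal array 3 there were 7 (7.87%, against 16.3%) and 17 (19.1%, against 14.1%). Without diabetic array 1 there were 13 (14.9%, against 23.3%) and 15 (17.2%, against 19.3%), and without diabetic array 2 there were 14 (15.6%, against 22.4%) and 19 (21.1%, against 21.9%). At the floor on every array were 10 with a floor of 10 and 66 with a floor of 40, when 43 were above it on every array. Shares over all probe sets at these floors were not computed, so the counts are not read as particular to receptors. The median receptor difference was 0.45 unscaled, where the median of all tested probe sets was 0.47, and 0.20 between the arrays of the shared day. Of 44 named and tested receptor probe sets, 15 kept their sign in every setting run, among them both probe sets of Chrnb4 and of Gria2 and those of Chrnb1, P2ry12 and Chrm3. The Gria2 probe set M36419_s_at came within 0.01 of 0 in 1 of them. For D13212_s_at of Grin2c the range was -1.22 to -0.52, with adjusted p between 0.532 and 0.9999 in limma. Nicotinic receptors had 9 of 14 tested probe sets above normal without diabetic array 2 and 10 of 14 without normal array 2. Of the 634 alternative values of named receptors, 80 had the other sign. Signal near the floor limits what these arrays can show of most receptors, and there was 1 diabetic pool.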
